A study of Mus musculus with 10 samples.

Results

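The 9 genes described here encode paired tissue isoforms of nuclear subunits of cytochrome c oxidase (complex IV), and they were taken by symbol from a table of 19938 genes. In 3 pairs a heart and skeletal muscle isoform faces a ubiquitous one: Cox6a2 with Cox6a1, Cox7a1 with Cox7a2, and Cox8b with Cox8a. A further pair is Cox4i1, the ubiquitous form of its subunit, with Cox4i2, a form known from lung and from hypoxic cells. Cox7a2l, the remaining member, encodes a relative of the Cox7a proteins known for joining complexes III and IV into supercomplexes. The 9 genes were read by 10 probe sets with 1 gene symbol each, 2 of them for Cox7a2l, and all 9 genes were bright enough to be tested (cutoff log2 6.55).

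Complex IV is the last enzyme of the respiratory chain: it passes electrons from cytochrome c to oxygen and pumps protons. Its catalytic core is made from mitochondrial DNA, and small nuclear-encoded subunits surround and regulate that core. In the heart the muscle isoforms of the Cox6a, Cox7a and Cox8 subunits replace much of the ubiquitous ones as the animal matures, while the remaining nuclear subunits have 1 main form in that tissue. PGC-1α and PGC-1β (genes Ppargc1a and Ppargc1b) are coactivators that raise transcription of respiratory genes, largely through the ERR, NRF1 and GABP (ETS family) factors.

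RNA came from both cardiac ventricles of mice aged 3 months and was read on 10 Affymetrix arrays, each labelled as from a mouse. Whether the RNA of several mice was pooled is not stated, so p-values measure the spread between these arrays. Per the labels every mouse was PGC-1a-/-. The 5 arrays titled PGC-1a-/- are from mice given sunflower seed oil, and the 5 titled PGC-1a-/-bf/f/MerCre are from mice given tamoxifen at 50 mg/kg per day on 2 days, at 2 months of age and 1 month before collection. The source names give the floxed PGC-1b alleles and MerCre, a Cre that tamoxifen activates, to both groups, whereas the titles name them for the tamoxifen group alone, and the genotype labels call PGC-1b expression unaffected in the vehicle group. No group received tamoxifen without floxed alleles, so an effect of the drug or of active Cre cannot be told apart from loss of PGC-1β. What promoter drives MerCre the labels do not say. Changes are tamoxifen minus vehicle on the log2 scale of the deposited signals, with SE after ± unless SD is stated.

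The array medians lay between 7.18 and 7.31, with tamoxifen array 2 the highest. Ppargc1b, the gene to be deleted, read 9.76, 9.69, 9.82, 9.65 and 9.90 in the vehicle arrays and 9.93, 10.15, 10.11, 9.93 and 10.03 in the tamoxifen arrays. That is higher, not lower, in the tamoxifen group (0.27 ± 0.061, limma adjusted p = 0.00518). Whether its probe set covers the deleted part is unknown here, so it neither checks the deletion nor the labels, and the groups below are those the labels give. Ppargc1a, disrupted in all mice per the labels, read 10.83, 11.04, 10.71, 10.70 and 10.79 in vehicle and 10.95, 11.58, 11.13, 11.20 and 11.14 in tamoxifen arrays. Its signal was higher in the latter by 0.39 ± 0.095 (limma adjusted p = 0.00797), although tamoxifen array 1 lay within the vehicle range. Of 10 cardiomyocyte markers, all tested, 1 was higher (Actn2, 0.18) and 1 lower (Ryr2, -0.16), beside 13.7% and 8.31% of all tested genes. The list mean was 13.84 to 13.87 in vehicle and 13.89 to 13.92 in tamoxifen arrays. In the same arrays 6 of 8 macrophage markers were higher (list mean 8.99 to 9.20 in vehicle and 9.22 to 9.48 in tamoxifen arrays), as were 6 of 8 fibroblast markers (10.05 to 10.18 and 10.30 to 10.53). Their part in the results below was not tested, and in whole ventricle fewer cells of a type and less RNA per cell cannot be told apart.

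Promoter sequences were at hand for 6 members, and 5 are printed because these genes stand on both sides of the muscle and ubiquitous division. Each is the 250 bases before the RefSeq start, written 5′ to 3′ on the gene's strand. Capitals mark letters of the ETS core or of the NRF1 core.
Cox8b promoter, GRCm38.p6 chr7:140900447-140900696, minus strand: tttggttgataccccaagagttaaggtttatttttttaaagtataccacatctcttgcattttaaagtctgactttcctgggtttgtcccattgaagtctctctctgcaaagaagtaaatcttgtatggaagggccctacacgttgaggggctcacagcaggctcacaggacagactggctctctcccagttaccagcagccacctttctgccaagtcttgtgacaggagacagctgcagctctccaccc
Cox8a promoter, GRCm38.p6 chr19:7217617-7217866, minus strand: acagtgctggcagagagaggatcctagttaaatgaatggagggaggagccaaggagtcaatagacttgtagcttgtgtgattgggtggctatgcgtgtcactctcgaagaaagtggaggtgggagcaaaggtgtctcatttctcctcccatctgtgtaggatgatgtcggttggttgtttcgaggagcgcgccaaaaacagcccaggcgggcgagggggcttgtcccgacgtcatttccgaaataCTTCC
Cox7a1 promoter, GRCm38.p6 chr7:30183921-30184170, plus strand: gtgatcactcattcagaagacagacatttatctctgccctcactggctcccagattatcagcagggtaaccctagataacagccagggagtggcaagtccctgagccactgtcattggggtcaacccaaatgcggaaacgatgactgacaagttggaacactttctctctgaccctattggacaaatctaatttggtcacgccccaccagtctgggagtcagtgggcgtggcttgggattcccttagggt
Cox7a2 promoter, GRCm38.p6 chr9:79759854-79760103, minus strand: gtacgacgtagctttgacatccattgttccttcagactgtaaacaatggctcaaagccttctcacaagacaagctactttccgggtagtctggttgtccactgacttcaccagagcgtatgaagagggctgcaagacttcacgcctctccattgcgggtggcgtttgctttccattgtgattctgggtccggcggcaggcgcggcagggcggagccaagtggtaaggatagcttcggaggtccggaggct
Cox6a1 promoter, GRCm38.p6 chr5:115348959-115349208, minus strand: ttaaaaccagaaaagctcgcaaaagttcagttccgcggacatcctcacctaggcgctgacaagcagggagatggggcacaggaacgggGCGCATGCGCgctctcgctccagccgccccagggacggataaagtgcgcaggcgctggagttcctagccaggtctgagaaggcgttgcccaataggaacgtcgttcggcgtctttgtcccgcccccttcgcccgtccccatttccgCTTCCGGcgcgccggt

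No window was at hand for Cox6a2, Cox4i1 or Cox4i2. The windows of the muscle isoforms Cox8b and Cox7a1 held fewer CpG dinucleotides than those of the ubiquitous isoforms Cox8a, Cox7a2 and Cox6a1. Over the 300 bases from 250 before to 50 after the start, Cox8b held 2 and Cox7a1 held 7. The ubiquitous isoforms held 19 in Cox8a, 20 in Cox7a2 and 32 in Cox6a1, and Cox7a2l held 19, against a median of 7 over 32851 such mouse windows. Motif letters were searched on both strands. The ETS core CCGGAAG was present in 2 of the 6 windows, Cox8a and Cox6a1, and in 8.86% of all windows. It began at base -16 in Cox6a1 and at base -5 in Cox8a, where it runs on past the printed end, with another match in Cox8a at base 33 after the start. The core of the NRF1 consensus lay in Cox6a1 from base -162 to -153 and in 2.27% of all windows. The whole NRF1 consensus (1.27% of windows), the ERR element TCAAGGTCA (0.423%), its part AAGGTCA (4.72%) and the MEF2 motif (3.19%) had no match in any of the 6 windows. The E-box CANNTG was in 5 of 6 windows, all but Cox6a1, and in 72.3% of all windows. These are matches of letters and say nothing of binding.

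Of the 9 genes, 6 were lower in the tamoxifen arrays and 0 were higher by limma (also 0 at an unadjusted p under 0.05). The 4 ubiquitous isoforms fell by 0.52 to 0.98, which is 1.44-fold to 1.97-fold. Of the 3 muscle isoforms Cox7a1 alone was called, with a fall of 0.37 (1.29-fold). Cox6a2 and Cox8b moved by -0.12 and -0.070 and were not called, with Cox6a2 near the threshold (limma adjusted p = 0.0713). Cox7a2l fell by 0.31, and Cox4i2 was at 0.0020. Over all 13870 tested genes 8.31% were called lower and 13.7% higher, and in 6.15% the tamoxifen values all lay below the vehicle values, as they did in the same 6 members. The median change was -0.37 over the 9 members and 0.014 over all tested genes.

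**Figure D1:**
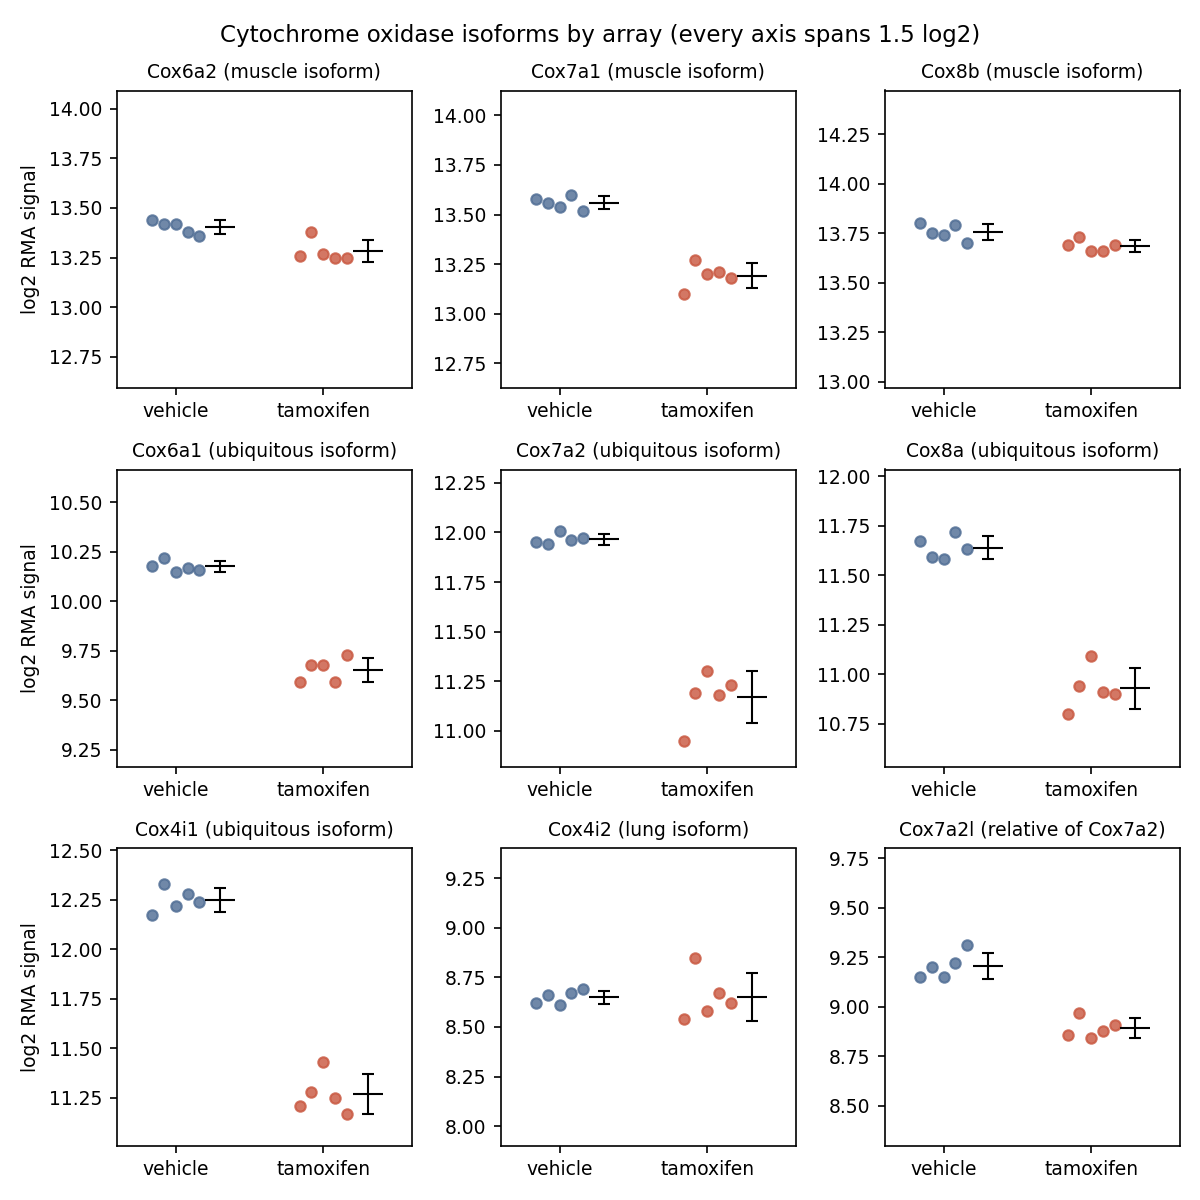
Log2 RMA signal (vertical axis) of each gene in the 5 vehicle and 5 tamoxifen arrays, ordered by replicate number, with the mean and SD beside the points. Each axis spans the same range, so the steps can be compared: the 4 ubiquitous isoforms drop by 0.52 to 0.98, Cox7a1 by 0.37 and Cox7a2l by 0.31, while Cox6a2, Cox8b and Cox4i2 overlap between groups.

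Cox4i1 encodes the ubiquitous form of the largest nuclear subunit, which binds ATP and adjusts the enzyme's turnover. Probe set 10576029 read 12.17, 12.33, 12.22, 12.28 and 12.24 in the vehicle arrays and 11.21, 11.28, 11.43, 11.25 and 11.17 in the tamoxifen arrays. The groups were apart by 0.74 between the lowest vehicle and the highest tamoxifen value. The change was -0.98 ± 0.056 (95% interval -1.10 to -0.86, limma adjusted p = 4.71e-09). By size of fall it ranked 29 among the 13870 genes.

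Cox7a2, the ubiquitous Cox7a form, read 11.95, 11.94, 12.01, 11.96 and 11.97 in the vehicle arrays and 10.95, 11.19, 11.30, 11.18 and 11.23 in the tamoxifen arrays (probe set 10595280). Tamoxifen array 1 was the lowest and array 3 the highest of its group, and the spread was wider there (SD 0.13) than among vehicle arrays (SD 0.027). The fall was 0.80 ± 0.060 (limma adjusted p = 7.34e-08). Cox8a, the ubiquitous form of the smallest subunit, read 11.67, 11.59, 11.58, 11.72 and 11.63 in vehicle arrays and 10.80, 10.94, 11.09, 10.91 and 10.90 in tamoxifen arrays (probe set 10465633). Again tamoxifen array 1 was lowest and array 3 highest, with no overlap between groups. It fell by 0.71 ± 0.056 (limma adjusted p = 1.40e-07).

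Cox6a1 is the ubiquitous form of a subunit that sits where the copies of the enzyme meet in its dimer. Its probe set 10532993 read 10.18, 10.22, 10.15, 10.17 and 10.16 in the vehicle arrays against 9.59, 9.68, 9.68, 9.59 and 9.73 in the tamoxifen arrays. The groups did not overlap, and the fall was 0.52 ± 0.047 (limma adjusted p = 5.36e-07). Among the 4 ubiquitous forms this was the change nearest to 0.

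Among the muscle forms, Cox7a1 (probe set 10551836) read 13.58, 13.56, 13.54, 13.60 and 13.52 in vehicle arrays and 13.10, 13.27, 13.20, 13.21 and 13.18 in tamoxifen arrays. All tamoxifen values were below all vehicle values, and the change was -0.37 ± 0.047 (95% interval -0.47 to -0.27, limma adjusted p = 2.81e-05). Cox6a2, the muscle form of the dimer-interface subunit, read 13.44, 13.42, 13.42, 13.38 and 13.36 against 13.26, 13.38, 13.27, 13.25 and 13.25 (probe set 10568369). Only tamoxifen array 2 reached into the vehicle range. The change was -0.12 ± 0.046 (95% interval -0.22 to -0.024), with a limma adjusted p of 0.0713. This gene was at the edge of the threshold: without tamoxifen array 2 the change was -0.15 with a limma adjusted p of 0.0146, and over 18 alternatives the adjusted p ran from 0.00474 to 0.145. Cox8b, the muscle form of the smallest subunit, read 13.80, 13.75, 13.74, 13.79 and 13.70 against 13.69, 13.73, 13.66, 13.66 and 13.69 (probe set 10569008). Tamoxifen array 2 again lay within the vehicle range. The change was -0.070 ± 0.044 (95% interval -0.16 to 0.024, limma adjusted p = 0.289), and it passed after quantile normalization (-0.11, limma adjusted p = 0.0313), with adjusted p from 0.0313 to 0.438 over 18 alternatives. These intervals leave room for falls of up to 0.22 and 0.16.

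Cox4i2 (probe set 10477179) read 8.62, 8.66, 8.61, 8.67 and 8.69 in the vehicle arrays and 8.54, 8.85, 8.58, 8.67 and 8.62 in the tamoxifen arrays. Tamoxifen arrays 2 and 1 were its highest and its lowest values, so the tamoxifen range enclosed the vehicle range. The change was 0.0020 ± 0.057 (95% interval -0.12 to 0.12, limma adjusted p = 0.985). This isoform is known in mural cells of blood vessels. Of 12 mural markers 2 were higher and 0 lower, beside 13.7% and 8.31% of all tested genes. The 2 were the smooth muscle genes Cnn1 (0.34 ± 0.070) and Acta2 (0.24 ± 0.071), and the rest of the list was not called. The mural list mean was 9.48 to 9.55 in vehicle and 9.52 to 9.74 in tamoxifen arrays, and its part in the Cox4i2 value was not tested. Ndufa4l2, also known from hypoxic and mural cells, read 8.23 and 8.07 as group means and was not called (-0.16 ± 0.081).

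Cox7a2l was read by both of its probe sets in the same direction. The brighter one, 10399677, read 9.15, 9.20, 9.15, 9.22 and 9.31 in vehicle and 8.86, 8.97, 8.84, 8.88 and 8.91 in tamoxifen arrays, without overlap (-0.31 ± 0.049, limma adjusted p = 0.000219). The dimmer one, 10453254, read 8.31, 8.36, 8.34, 8.30 and 8.33 against 7.94, 8.09, 8.08, 8.14 and 8.05, a difference of -0.27, also without overlap.

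The comparison of muscle with ubiquitous isoforms was made within each array, as the log2 signal of one isoform less that of its partner. Brightness differs between probe sets for reasons other than RNA amount, so only the shift of this difference between groups was read, and no isoform's level was set against another's. Cox8b minus Cox8a shifted by 0.64 ± 0.058 (95% interval 0.52 to 0.76), a 1.56-fold change in the ratio of their signals. Measured from the vehicle mean, the 5 tamoxifen arrays lay at 0.77, 0.67, 0.45, 0.63 and 0.67, and the vehicle arrays between -0.048 and 0.042. Cox7a1 minus Cox7a2 shifted by 0.43 ± 0.055 (0.31 to 0.54), with tamoxifen arrays at 0.56, 0.49, 0.31, 0.44 and 0.36 and vehicle arrays between -0.064 and 0.046. Cox6a2 minus Cox6a1 shifted by 0.40 ± 0.049 (0.30 to 0.50), with tamoxifen arrays at 0.44, 0.47, 0.36, 0.43 and 0.29 and vehicle arrays between -0.028 and 0.042. In these 3 pairs the signal ratio thus moved toward the muscle isoform in 5 of 5 tamoxifen arrays. Against the same partners 92.1% to 98.0% of other tested genes also lay wholly higher in the tamoxifen arrays.

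The other pairs moved as well. Cox4i2 minus Cox4i1 shifted by 0.98 ± 0.067 (0.84 to 1.12), with tamoxifen arrays from 0.75 to 1.17 and vehicle arrays from -0.072 to 0.048. Cox7a2l minus Cox7a2 shifted by 0.48 ± 0.064 (0.35 to 0.62), with tamoxifen arrays from 0.30 to 0.67 and vehicle arrays from -0.10 to 0.10. Each of the 5 pairs gave an exact two-sided permutation p of 0.00794, the smallest that 5 against 5 arrays allow (0.00794 after Benjamini-Hochberg adjustment over the 5 pairs). In each pair the second-named gene had fallen, and no first-named gene was called higher. Since 92.1% to 99.2% of other tested genes separated likewise from these partners, the p-values say little about the first-named genes.

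**Figure D2:**
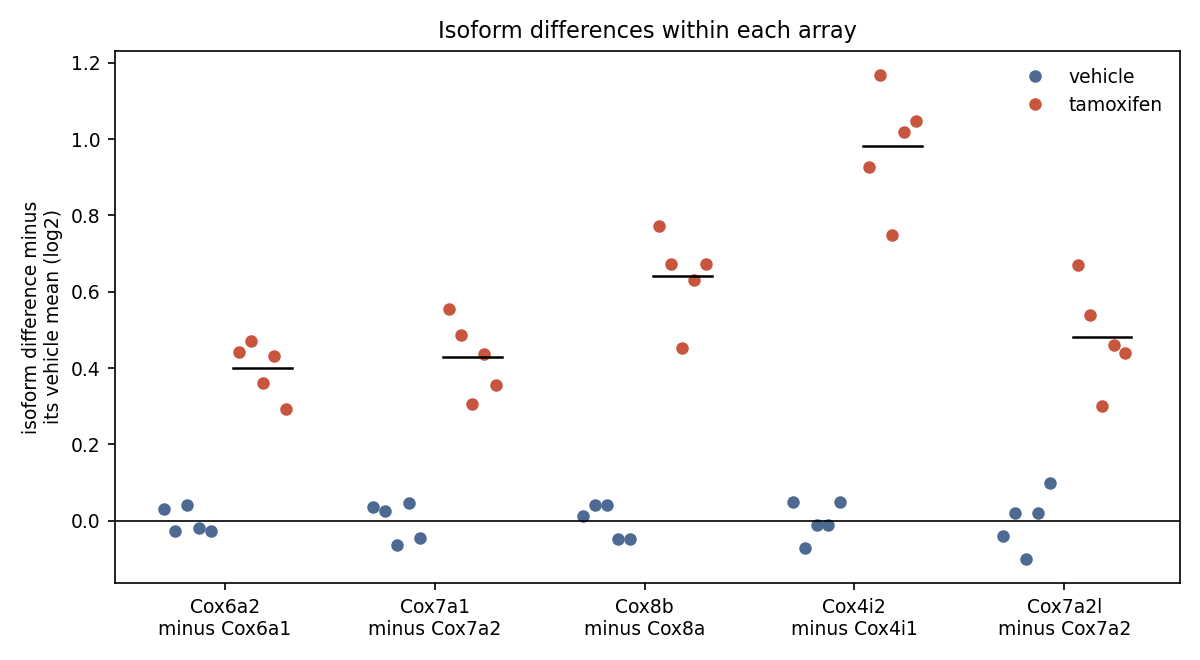
Log2 difference between the isoforms of a pair in each array, less the vehicle mean of that pair (vertical axis), for 5 vehicle and 5 tamoxifen arrays, with the tamoxifen mean as a line. Tamoxifen arrays lie above the vehicle arrays in all 5 pairs, with means of 0.40 to 0.98.

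Such a shift was not particular to the paired isoforms. When each other tested gene was set against Cox6a1 in the same way, 92.1% had tamoxifen values wholly above the vehicle values. The share was 98.0% against Cox7a2, 97.0% against Cox8a and 99.2% against Cox4i1. The separation of all 5 pairs is thus what most genes show against these partners and is no result about the muscle isoforms. In the order of all changes, 1.43% of tested genes lay below Cox6a1, 0.670% below Cox8a, 0.440% below Cox7a2 and 0.202% below Cox4i1. The share was 2.65% for Cox7a1, 14.1% for Cox6a2 and 24.2% for Cox8b.

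**Figure D3:**
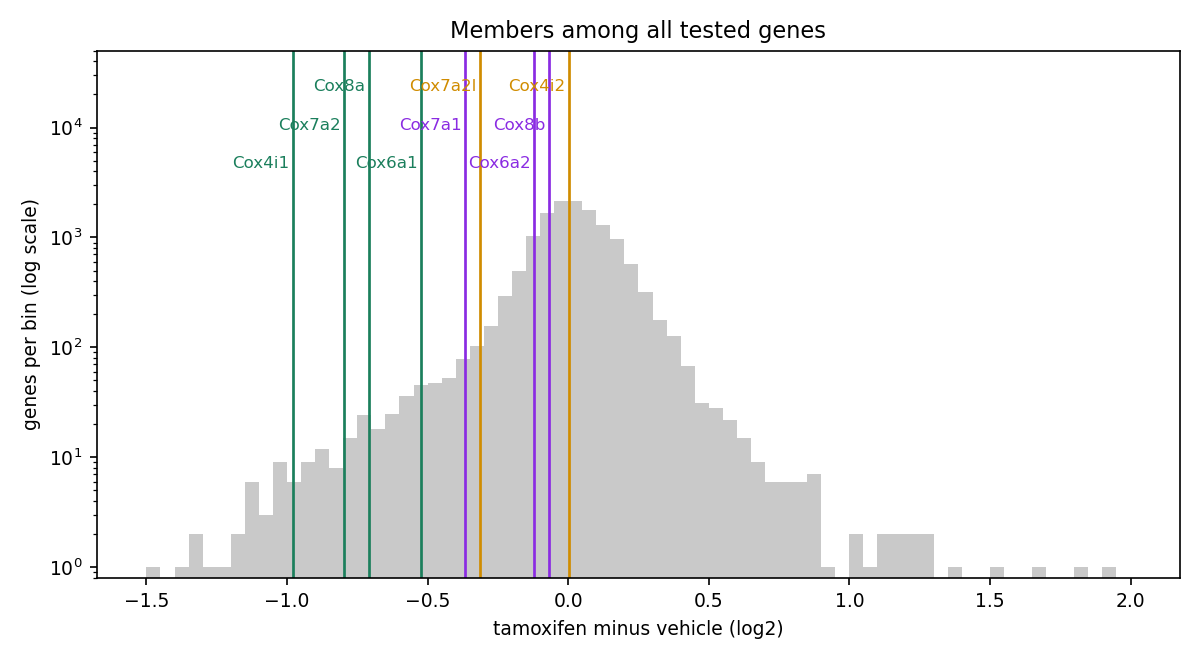
Number of tested genes (vertical axis, log scale) by log2 change between tamoxifen and vehicle arrays (horizontal axis), in bins of equal width, with lines at the 9 members. The ubiquitous isoforms from -0.98 to -0.52 lie in the lower tail, while Cox6a2, Cox8b and Cox4i2 lie in the bulk of the genes.

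The changes of the muscle isoforms differed in size, as did those of the ubiquitous ones. These 9 differences were chosen after the values were seen and are adjusted over the 9. They restate the changes given above, so their p-values describe the spread between arrays and are no independent test. Of the other tested genes, 99.2% lay wholly higher against Cox4i1, 98.0% against Cox7a2 and 97.0% against Cox8a. A ubiquitous form lying higher against one of these partners is thus what most genes show. How many other tested genes separate from the muscle isoforms was not counted. The change of Cox7a1 lay below that of Cox6a2 (difference -0.25 ± 0.046, exact permutation p = 0.00794, adjusted 0.0143) and below that of Cox8b (-0.30 ± 0.046, with the same exact permutation p and adjusted value). Cox6a2 and Cox8b were not told apart (-0.052, 95% interval -0.15 to 0.042, exact permutation p = 0.0714, adjusted 0.0804). Among the ubiquitous forms Cox4i1 fell further than Cox6a1 (-0.46 ± 0.057), Cox8a (-0.27 ± 0.053) and Cox7a2 (-0.18 ± 0.060), with exact permutation p of 0.00794, 0.00794 and 0.0238, or 0.0143, 0.0143 and 0.0306 adjusted. Cox7a2 and Cox8a, neighbours in the order of change, were not told apart (-0.086, 95% interval -0.20 to 0.024, exact permutation p = 0.0952). Cox8a and Cox7a2 both fell further than Cox6a1 (-0.19 and -0.27, exact permutation p = 0.0159 and 0.00794, adjusted 0.0238 and 0.0143).

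The muscle isoform probe sets were among the brightest of the table, above 99.5% of tested genes or more, and their falls can be set beside those of equally bright genes. The mean over all 10 arrays was at least 13.34, that of Cox6a2, in 66 genes, with the 3 muscle isoforms among them. The tamoxifen arrays count in this mean, so a gene bright in vehicle that fell far could miss the set. Of the 66, 15 were lower and 10 higher, beside 8.31% and 13.7% of all tested genes, and 3 fell by over 0.5. These 3 were cytochrome c (Cycs, 13.81 to 13.11), the complex III subunit gene Uqcrc2 (13.72 to 13.03) and the ATP synthase subunit gene Atp5g1 (14.05 to 13.47). The largest of these falls was that of Cycs, by 0.70 ± 0.075. Whether the top of the signal scale shortened the changes of the 3 muscle isoforms, and so widened the pair differences, was not tested.

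The other subunits, which have 1 main form in the heart, also fell, by unequal amounts. All 6 measured ones were called lower, beside 8.31% of all tested genes, with a median of -0.63. Cox7c had no probe set with 1 symbol. Cox5b, which carries the zinc site, fell by 1.01 ± 0.065 and Ndufa4, an accessory subunit first assigned to complex I, by 0.94 ± 0.050. Cox6b1, on the intermembrane face, fell by 0.68 ± 0.048 and Cox5a by 0.58 ± 0.051. Cox6c fell by 0.28 ± 0.045 and Cox7b by 0.23 ± 0.051, and their 95% intervals (-0.38 to -0.19 and -0.33 to -0.12) overlapped those of Cox7a1 and Cox6a2. With the mean of its probe sets in place of the brightest, Cox7b fell by 0.33 (limma adjusted p = 0.00023). Over the 9 members and these 6 genes, vehicle signal and change had a Pearson r of -0.084 (15 genes from the same arrays, a description).

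**Figure D4:**
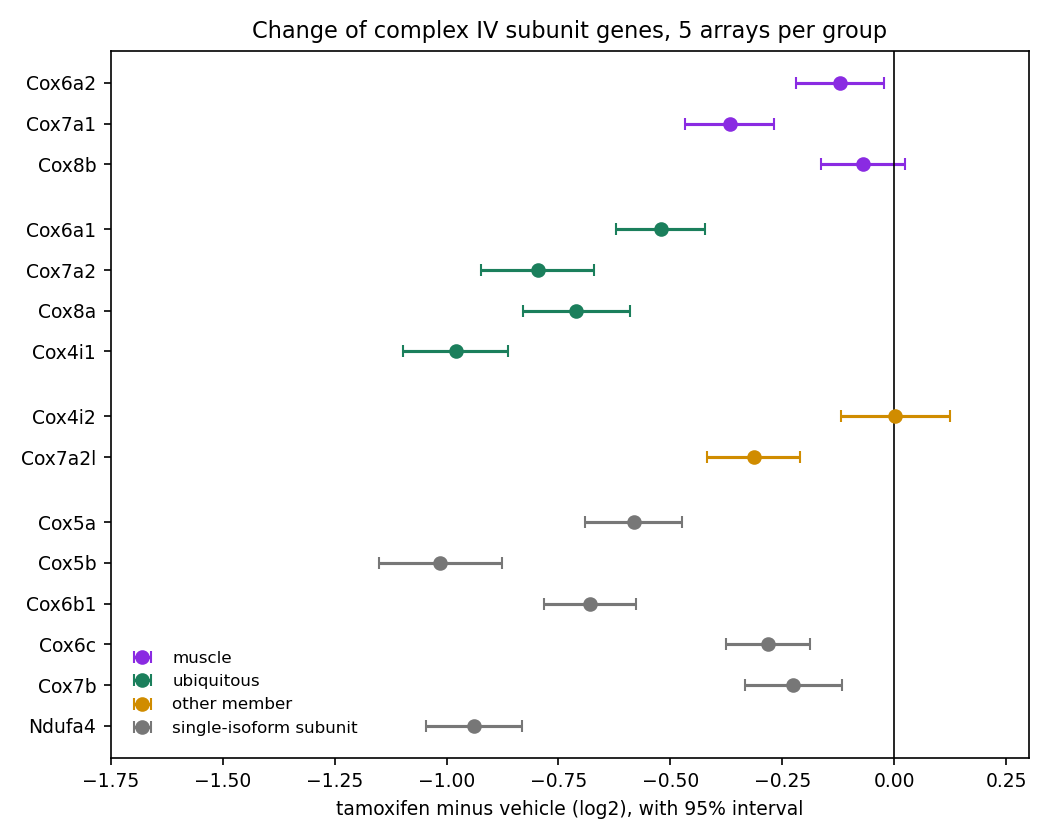
Tamoxifen minus vehicle change (log2, horizontal axis) with its 95% interval from the limma fit for the 9 members and 6 single-isoform subunits of complex IV. Cox6c and Cox7b lie near the muscle isoforms, and Cox5b and Ndufa4 lie near Cox4i1.

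Testis isoforms of complex IV were dim. Cox6b2 read 6.76 and 6.79 as group means and Cox8c 7.02 and 6.82, neither called (limma adjusted p = 0.844 and 0.0703), and Cox7b2 lay under the cutoff at 4.61 to 5.20. Of 20 measured assembly factors 14 were lower and 0 higher by limma, beside 8.31% and 13.7% of all tested genes. At an unadjusted p under 0.05 the number higher was also 0, and the median change was -0.23. The 3 with the smallest p were Lrpprc, which stabilises mitochondrial messenger RNA, at -0.82 ± 0.051, Cox10, which works in making the enzyme's haem, at -0.75 ± 0.050, and Taco1, a translational activator of the core subunit, at -0.66 ± 0.061.

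Of 16 measured regulators known for these genes, 3 were lower and 4 higher, beside 8.31% and 13.7% of all tested genes. Esrra, the receptor ERRα, fell by 0.42 ± 0.057, Esrrb by 0.25 ± 0.073 and Gabpa, the DNA-binding ETS subunit of GABP, by 0.21 ± 0.051. Hif1a, of the hypoxia response, rose by 0.19 ± 0.065 (limma adjusted p = 0.0415), beside Ppargc1a, Ppargc1b and Pprc1. Nrf1 (0.036), Esrrg (0.026) and the muscle factor genes Mef2a (0.066), Mef2c (0.046) and Mef2d (0.12) were not called. Cox8b and Cox7a1 are also abundant in brown fat and skeletal muscle. The brown fat gene Ucp1 lay under the cutoff in all arrays (5.59 to 6.23), as did the fast skeletal myosins Myh1 (5.75 to 6.10) and Myh4 (5.69 to 6.08). Of 7 measured brown adipocyte markers 4 lay above the cutoff, and of 9 skeletal ones 6 did. Vehicle and tamoxifen means were 8.56 and 8.43 for Cidea and 8.54 and 8.45 for Mybpc2. The fast myosin gene Myh2 read 6.74 and 6.68. Of 4 tested brown adipocyte markers 0 were called by limma, while Cidea (-0.14) and Dio2 (0.20) had an unadjusted p under 0.05. Of 6 tested skeletal markers 1 was higher, Tnni2 (0.21), beside 13.7% of all tested genes.

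Muscle and ubiquitous isoform pairs outside complex IV went both ways. Of 8 such pairs listed 6 had both genes measured. In these, the muscle or heart form less its partner lay higher in the tamoxifen arrays without overlap in 3 pairs and lower without overlap in 1, and 2 overlapped. Over all other tested genes set against the same partners, 74.9% lay wholly higher against Slc25a5 and 87.2% against Pgam1. Separation from these partners is thus what most genes show. Against Ckb 24.4% lay wholly higher, and against Ldha 50.6% lay wholly lower. Whether any of these separations has to do with the muscle or heart form was not tested. Of the adenine nucleotide carriers the heart form Slc25a4 was at -0.0060 (not called), and Slc25a5 fell by 0.39 ± 0.058. Among glycolytic enzymes the muscle phosphoglycerate mutase gene Pgam2 rose by 0.57 ± 0.050 and Pgam1 fell by 0.52 ± 0.067. Creatine kinase Ckm rose by 0.20 ± 0.044 with Ckb at -0.15 (not called). The lactate dehydrogenases ran the opposite way: the heart form Ldhb fell by 0.22 ± 0.046 and Ldha rose by 0.30 ± 0.045. In Pfkm with Pfkl and Phka1 with Phka2 the differences of change were -0.034 and -0.094.

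**Figure D5:**
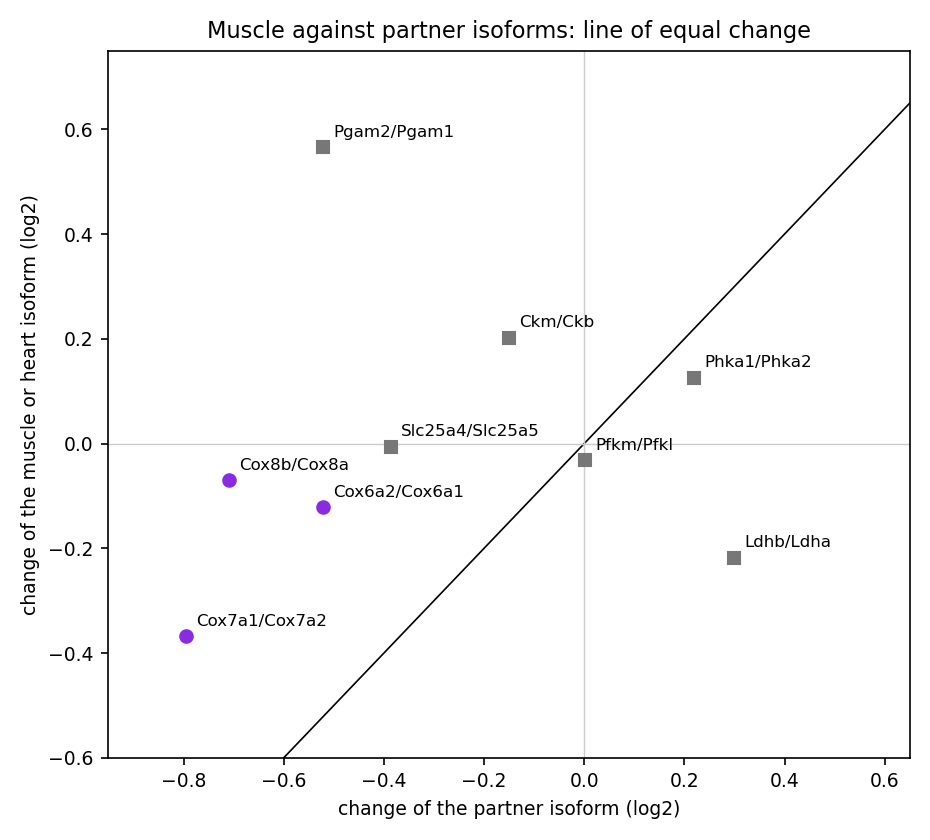
Log2 change of the muscle or heart isoform (vertical axis) against that of its partner (horizontal axis) for the 3 cytochrome oxidase pairs (circles) and 6 other pairs (squares), with the line of equal change. The cytochrome oxidase pairs lie above the line with a falling partner, as does Slc25a4 with Slc25a5, while Ldhb with Ldha lies below it.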

How the data were processed

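The submitters' processing notes name RMA and Affymetrix Expression Console 1.1. RMA values, as the authors deposited them, are on a log2 scale, with arrays normalized to each other and probes summarised; signal from near-identical copies or pseudogenes was not separated. Of 35556 probe sets, 21789 had 1 gene symbol in the platform annotation, 1621 several and 12146 none. For genes with several, the brightest was used; the dimmest 30% of probe sets (below log2 6.55) were left out, leaving 13870 genes. Groups came from the titles. The fit was limma 3.58.1 in R 4.3.3 (lmFit, eBayes, no covariate, two-sided), with Benjamini-Hochberg adjustment over the 13870 genes and a threshold of 0.05. SE and intervals of isoform differences come from rows fitted beside the genes; their p-values are exact permutation tests. The members, lists and tests were chosen with earlier results of these data known. Named were all members, the single-isoform and testis subunits, and up to 3 genes of each other list by smallest p; other genes were named after their values were seen, as were the NRF1 core and the differences within a class. Promoters are RefSeq windows of GRCm38.p6. Alternatives changed the prior, weights, normalization, centring, filter, probe set rule and block, or left out 1 array. The code was tested on simulated data. Figures used matplotlib 3.10.9. The number of arrays limits precision.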

Additional observations from a re-analysis of the deposited data

Results flagged for a closer look

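Within groups of 5 arrays, the gap of the highest or lowest value to its neighbour was set against the whole range for the 9 genes and 5 pair differences. Of 28 such groups 1 stood out, where chance marks about 1 in 20. It was Cox6a2 in the tamoxifen arrays, where array 2 read 13.38 and the other 4 read 13.25 to 13.27. The same array had the highest median signal (7.31) and the highest value of its group in 5 of the 9 genes. The cause was not tested.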

How the results depend on the processing

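Over 18 alternatives the number of members called lower ran from 6 to 8 (6 to 7 when 1 array was left out) and the number called higher stayed at 0. The 6 members called lower kept their calls in each alternative. Cox6a2 was called with array weights, a trended robust prior, median centring, quantile normalization, the dimmest 50% left out, or without tamoxifen array 2, and Cox8b after quantile normalization. All 5 isoform pairs passed in their 14 alternatives, with shifts from 0.38 to 1.04. Genes with higher signal made up 62.3% of all calls, 51.8% with array weights and 49.7% without tamoxifen array 2, and genes called lower numbered 1153, or 1780 with array weights. With the replicate number as a block, 6 members were lower and Cox6a2 had an adjusted p of 0.0725; the block called Cox8c and Ckb (adjusted p = 0.0298 and 0.0360), and all calls numbered 2232 higher and 1300 lower, against 1906 and 1153 without it. Deviations of same-numbered arrays correlated by 0.175, 0.203, 0.0981, 0.039 and 0.174. Not all were over 0.1, the level set for taking the numbers as pairs, although 4 of 5 vehicle arrays correlated best with their own number, a hint of pairing from the data. Outside the members, Cox8c and Ckb were called lower in 5 alternatives each, and Phka2 lost its call without vehicle array 2 or tamoxifen array 1. Signal over background was not given.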

Other observations

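For each member the tested genes with the most similar signal over the 10 arrays were listed as a description; the arrays share the group difference, so genes that fell together rank high. Cox4i1 was followed most closely by the complex I genes Ndufs3 (Pearson r = 0.999) and Ndufb9 (0.998) and by the fumarase gene Fh1 (0.998). Cox7a2 lay nearest to Ndufa11 (0.995), Cox5b (0.993) and Ubac1 (0.992), and Cox8a to Ndufb8 (0.994), the malate dehydrogenase gene Mdh2 (0.994) and Sdhc (0.994). Cox6a1 lay nearest to the ATP synthase gene Atp5j2 (0.993), Uqcr11 (0.992) and Cox10 (0.990). Cox7a1 lay nearest to Sdr39u1 (0.995), Hpdl (0.993) and the pyruvate carrier gene Mpc1 (0.993), and Cox7a2l to Arfrp1 (0.992), Slc25a34 (0.980) and Tmem106b (0.979).

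The members that did not pass had other neighbours: Trak2 (0.975), Zdhhc1 (0.971) and Nf2 (0.970) for Cox6a2, Spock1 (0.964), Nfe2l3 (0.961) and 2310016G11Rik (0.958) for Cox8b, and Arhgef2 (0.963), Mogs (0.959) and Cactin (0.934) for Cox4i2. After each array was centred on its median, the nearest gene to Cox6a2 was Dsc2 (0.992) and to Cox8b it was Dhrsx (0.947). Cox4i2 kept Arhgef2 (0.921) and Mogs (0.920) as its nearest genes. Its change between groups was 0.0020 and its highest value was in tamoxifen array 2, whose part in these correlations was not tested. Cox4i1 (Ndufb9, 0.998), Cox6a1 (Atp5j2, 0.992) and Cox7a1 (Sdr39u1, 0.994) also had a nearest gene already named.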
